A study of Homo sapiens with 12 samples.

Results

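AGO2 is the Argonaute protein that holds a miRNA and, through it, binds target mRNAs. The regions described here are eCLIP regions of AGO2 that lie inside long protein-coding genes but away from the gene end where the 3′ UTR is expected. A region was taken when it overlapped a RefSeq protein-coding gene longer than 10 kb, with the shortest span chosen where several genes overlapped, and when its midpoint was 5 kb or more from the gene end downstream on the strand of the region. There were 650 such far regions among 4111 regions of both lists, 176 of 1190 in the WT list and 474 of 2921 in the 5xA list. They were divided into upstream regions, whose midpoint lay within 5 kb of the opposite gene end, and interior regions, which were 5 kb or more from both ends. No exons were given, so whether a far region lies in a 3′ UTR longer than 5 kb was not tested.

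The study used HCT116, an established human colorectal carcinoma cell line, and crosslinked RNA to protein with ultraviolet light at 400 mJ/cm2 after 48 h of culture. Tagged AGO2 was immunoprecipitated (IP) with an anti-FLAG antibody. The 12 samples form 6 groups of 2, an input and an IP for each of FH-AGO2_WT, FH-AGO2_5xA and AGO2_KO cells. In 5xA a cluster of phosphorylated residues of AGO2 is replaced by alanine, AGO2_KO is the knockout control, and the labels do not say whether any line is 1 clone. Each of the 2 region lists belongs to both IP samples of its genotype, so replicate spread cannot be given and the depth behind a region is unknown. The labels used here do not say how peaks were called and replicates merged, or whether input and knockout reads served as background. Tests below compare regions within a list and treat them as independent, although some regions share a gene, so their p-values do not compare genotypes over replicates. Exact intervals (Clopper-Pearson, 95%) likewise cover counting error alone.

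A miRNA guides Argonaute by pairing of its seed, the bases near its 5′ end, with a target. Functional sites are best known in 3′ UTRs, and the proteins TNRC6A, TNRC6B and TNRC6C then link Argonaute to mRNA decay and translational repression. AGO2 also receives its miRNAs as products of hairpins, many of which lie in introns of protein-coding genes.

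Far regions at miRNA hairpins and at gene starts are the positions where the bound sequence can be read from the RefSeq tables (GRCh38.p14). The interior of 6 genes held a region on a miRNA hairpin. Those regions covered 68.4% to 84.3% of their hairpins and were longer than the mature sequences. The MIR340 regions held both arms whole or nearly whole. At MIR7108 they held 2 (WT) and 0 (5xA) of the 20 bases of the 3p arm. In the 5xA list the region held 0 of the 21 bases of miR-6765-3p and 8 of the 21 bases of let-7g-3p. The other hairpins have a single mature sequence in the shown set. The mature sequences lying whole or nearly whole in the regions are shown 5′ to 3′, because they name the miRNAs of these hairpins. Region coordinates alone do not show whether AGO2 held the mature miRNAs. The seed (bases 2 to 8) is in capitals.
let-7f-5p: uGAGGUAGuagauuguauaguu
let-7g-5p: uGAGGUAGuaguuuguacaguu
miR-1296-3p: gAGUGGGGcuucgacccuaacc
miR-340-3p: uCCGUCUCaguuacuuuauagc
miR-340-5p: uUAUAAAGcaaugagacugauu
miR-7108-5p: gUGUGGCCggcaggcgggugg
miR-6765-5p: gUGAGGCGgggccaggagggugugu
The seed GAGGUAG is common to let-7f-5p and let-7g-5p, and the other seeds differ from it and from each other.

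The hairpin regions were narrow, and 4 of the 6 genes held them in both lists. In HUWE1, which encodes a ubiquitin ligase, the WT and 5xA lists held the identical region chrX:53557198-53557267 of 70 bases on hg38. It covered all 22 bases of let-7f-5p and 84.3% of MIRLET7F2, and lay 25.1 kb from the gene end. JMJD1C, a chromatin protein related to histone demethylases, also held an identical region in both lists, chr10:63372968-63373033, 206 kb from the gene end. All 22 bases of miR-1296-3p were inside it. RNF130, a ring-finger protein gene, held MIR340 regions of 65 bases (WT) and 67 bases (5xA) that contained all 22 bases of miR-340-3p and 21 of the 22 bases of miR-340-5p, 104 kb from the end. LMNB2, which encodes a lamin of the nuclear envelope, held MIR7108 regions of 69 and 65 bases, each with all 21 bases of miR-7108-5p. In the 5xA list alone, WDR82, a component of histone methyltransferase complexes, held a region of 65 bases on MIRLET7G that contained let-7g-5p. JAG2, a Notch ligand gene, held one of 66 bases with all 25 bases of miR-6765-5p. The genes CEP295, KLHL2 and TRIM55 each held a 5xA region on another small RNA gene, respectively SCARNA9, an snRNA gene and the tRNA gene TRY-GTA5-2, the last in the upstream 5 kb. No strand is given for these small RNA genes, so whether the regions lie on their strand is unknown. The KLHL2 region lay on the strand opposite to KLHL2.

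At gene starts, the promoter table gives 300 bases around each annotated start, 250 before it and 50 after it. Far regions met this window in 23 genes, 5 of them in both lists. For those 5 genes, 60 bases before the start and 30 after it are shown 5′ to 3′ on the gene strand. Bases covered in either list are in capitals, because they show where the bound stretch lies around the start. In PGK1 the regions of both lists begin before the bases shown. The capitals come from the 5xA list alone in EIF4EBP2 and from the WT list alone in HIC2, where the region of the other list begins after the bases shown.
B4GALT5, chr20:49713849-49713938, minus strand: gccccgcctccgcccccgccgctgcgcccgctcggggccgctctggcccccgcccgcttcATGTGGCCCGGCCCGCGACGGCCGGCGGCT
BRI3, chr7:98281626-98281715, plus strand: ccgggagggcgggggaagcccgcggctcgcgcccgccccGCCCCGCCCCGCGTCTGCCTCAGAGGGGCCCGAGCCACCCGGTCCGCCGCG
EIF4EBP2, chr10:70404085-70404174, plus strand: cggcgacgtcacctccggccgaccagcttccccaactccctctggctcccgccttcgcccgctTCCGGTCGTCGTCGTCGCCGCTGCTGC
HIC2, chr22:21417311-21417400, plus strand: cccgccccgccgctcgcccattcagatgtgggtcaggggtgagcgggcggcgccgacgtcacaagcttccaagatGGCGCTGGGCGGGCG
PGK1, chrX:78104188-78104277, plus strand: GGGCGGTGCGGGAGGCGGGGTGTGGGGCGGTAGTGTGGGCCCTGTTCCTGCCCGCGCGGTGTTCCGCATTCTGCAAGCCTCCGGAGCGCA
The 90 bases shown were 86.7% G or C in B4GALT5 and BRI3 and 73.3% in the other genes. Over the 23 windows met by far regions the median G and C content of the 300 bases was 73.3%, beside 63.0% over the 17205 start windows of long protein-coding genes.

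Far regions made up similar shares of both lists. They were 176 of the 840 WT regions in long protein-coding genes (21.0%, 18.2 to 23.9) and 474 of the 2128 5xA regions (22.3%, 20.5 to 24.1). Interior regions numbered 142 with WT (16.9%) and 372 with 5xA (17.5%), and upstream regions 34 (4.05%) and 102 (4.79%). The 5xA list was longer in every class, by a ratio of 2.62 for interior regions, 3.0 for upstream regions and 2.49 for the 1654 against 664 near regions, those within 5 kb of the downstream end. No error can be put on these ratios with 1 list per genotype.

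The 5 kb line divides a continuous range. In the WT list the regions just inside it lay 5038 bases from the end in DENND5B, 5043 in NR6A1 and 5045.5 in ATXN1L, and those just outside it at 4888.5 bases in ZC3H12C, 4927 in GPRC5A and 4986.5 in ZC3HAV1L. In the 5xA list the nearest inside lay at 5005.5 bases in MTF2, 5012 in GSK3B and 5024 in KIF2A. The nearest outside were at 4928.5 bases in ANKRD52, 4988.5 in DCAF7 and 4994 in VKORC1L1.

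**Figure D1:**
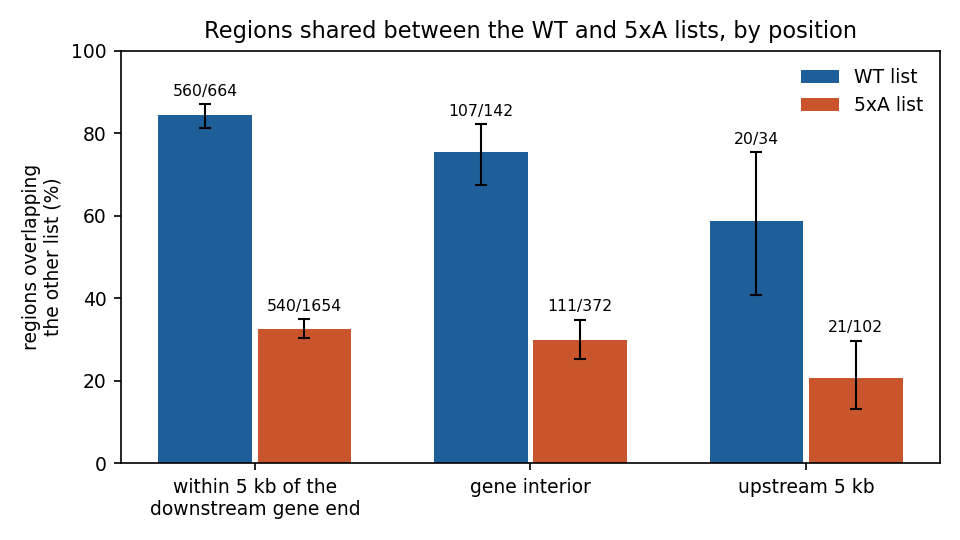
Share of regions that overlapped a region of the other list on the same strand by 1 base or more (vertical axis, percent), by position in the gene, for the WT list (blue) and the 5xA list (orange), with counts above the bars and exact 95% intervals. The share falls from 84.3% near the downstream end to 58.8% upstream in the WT list, and from 32.6% to 20.6% in the 5xA list.

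The overlap of far regions with the other list was set beside that of all regions in long protein-coding genes. In the WT list 127 of 176 far regions (72.2%) overlapped a 5xA region, where 81.8% of all WT regions in long protein-coding genes did. The share was 75.4% for interior regions (107 of 142), 58.8% for upstream regions (20 of 34) and 84.3% for near regions. In the 5xA list 132 of 474 far regions (27.8%, 23.9 to 32.1) overlapped a WT region, close to the 31.6% of all 5xA regions in these genes. There the shares were 29.8% (111 of 372), 20.6% (21 of 102) and 32.6%. The plot of overlap by position shows these shares, and far regions as a whole were not tested against near regions.

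Upstream regions were more frequent among regions of 1 list alone than among shared regions. Of the WT regions found with WT alone, leaving interior regions aside, 14 of 118 were upstream (11.9%), against 20 of 580 shared regions (3.45%; odds ratio 3.76, 1.7 to 8.11; Fisher's exact test, two-sided, adjusted p = 0.00102). With 5xA, 81 of 1195 regions of that list alone (6.78%) and 21 of 561 shared regions (3.74%) were upstream (odds ratio 1.87, 1.13 to 3.22; exact test, adjusted p = 0.0173). In genes longer than 20 kb neither call held, with odds ratios of 2.58 (exact test, adjusted p = 0.069) and 1.26 (adjusted p = 0.534). Under a reciprocal overlap of 50% the WT call was also lost (2.07, exact test, adjusted p = 0.0612). P-values were adjusted by the Benjamini-Hochberg method over the 12 tests on regions.

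For interior regions the result depended on the setting. With WT, 35 of 139 regions of that list alone (25.2%) and 107 of 667 shared regions (16.0%) were interior, leaving upstream regions aside (odds ratio 1.76, 1.1 to 2.77; Fisher's exact test, two-sided, adjusted p = 0.0186). The odds ratio was 1.26 among regions on the gene strand (exact test, adjusted p = 0.582) and 0.931 where a shared region needed a reciprocal overlap of 50% (adjusted p = 0.796). It also missed the threshold with the longest span (1.53), a 2 kb window (1.3), or without regions in more than 1 gene (1.66) or near another gene's end (1.54). With 5xA the shares were 19.0% and 17.1% (odds ratio 1.14, 0.887 to 1.47; exact test, adjusted p = 0.326).

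**Figure D2:**
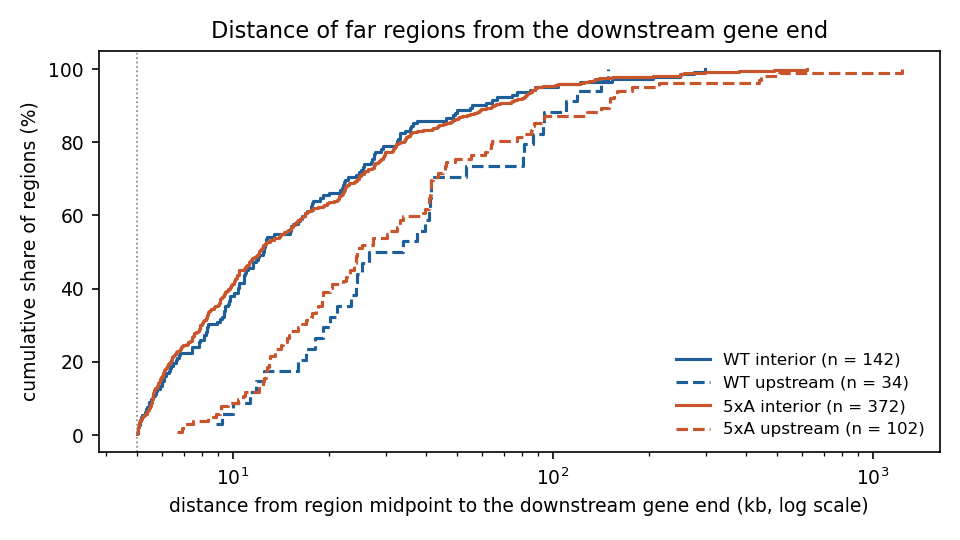
Cumulative share of far regions (vertical axis, percent) by the distance from the region midpoint to the downstream gene end (horizontal axis, kb, log scale), for interior (solid) and upstream (dashed) regions of the WT list (blue) and the 5xA list (orange), with the 5 kb threshold dotted. The WT and 5xA curves of the interior class lie on each other, with medians of 12.4 and 12.1 kb.

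Interior regions lay at like distances in both lists. The median distance to the downstream end was 12.4 kb with WT (quartiles 7.85 and 27.2) and 12.1 kb with 5xA (7.2 and 28.6), as the cumulative plot of distances shows. Between 5 and 10 kb from the end lay 54 of 142 WT regions (38.0%) and 154 of 372 5xA regions (41.4%), and more than 100 kb away lay 7 and 17. With each gene divided into 5 equal parts from its upstream end, the WT regions numbered 4, 13, 39, 37 and 49, and the 5xA regions 10, 33, 89, 90 and 150. The rule itself removes regions near both ends, which empties the outer parts of shorter genes. The farthest interior 5xA region lay in RPS6KC1, a ribosomal S6 kinase-like gene, 621 kb from its end, and the farthest WT region in CLVS1, a clavesin gene, 298 kb from its end in the span of the pseudogene NPM1P6. Among upstream regions the farthest was a 5xA region in GPHN, the gene of the synaptic scaffold gephyrin, 1227059 bases from the gene end.

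Distance did not order the overlap with the other list. For WT it was 79.6% of regions at 5 to 10 kb, 72.5% at 10 to 20 kb, 71.0% at 20 to 50 kb and 76.5% (13 of 17) beyond 50 kb. For 5xA it was 29.2%, 36.1%, 27.4% and 25.5% (13 of 51). Median width fell with distance in the 5xA list, from 110 bases at 5 to 10 kb through 94 and 91 to 76 bases, and was 112, 113, 103 and 87 bases in the WT list. Those distances are not independent of the gene, since a long distance needs a long gene.

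**Figure D3:**
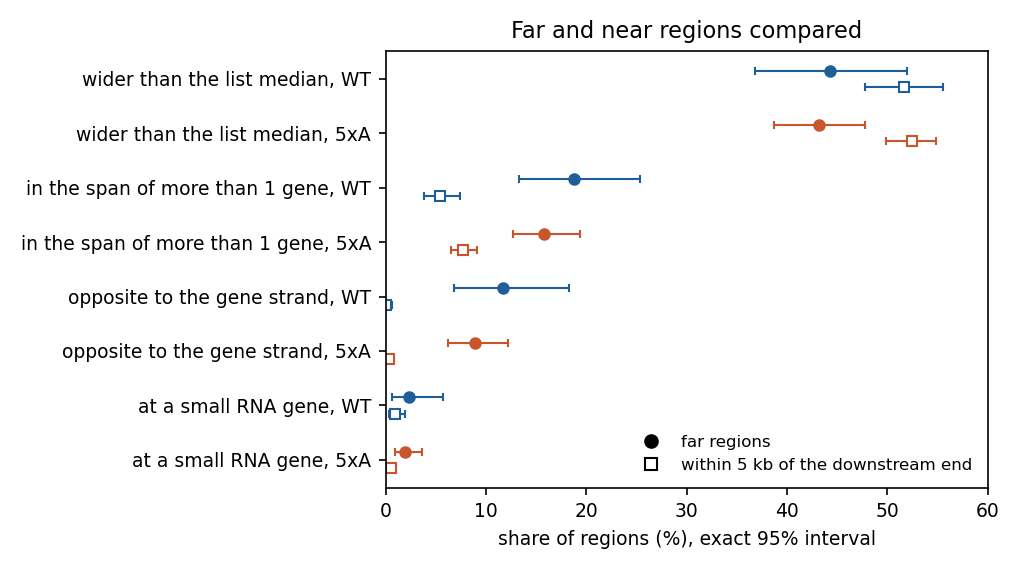
Shares of far regions (filled circles) and near regions (open squares) with each property (horizontal axis, percent, exact 95% intervals), for the WT list (blue) and the 5xA list (orange). Opposite-strand shares are over regions in genes of known strand. Far regions stand above near regions for an overlapping gene in both lists. That difference and the opposite-strand difference come in part from the rule, which takes the shortest gene and uses the region's strand.

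Far regions differed from near regions in what else lay under them. More than 1 gene span covered 33 of 176 far WT regions (18.8%) and 36 of 664 near ones (5.42%; odds ratio 4.02, 2.34 to 6.88; Fisher's exact test, two-sided, adjusted p = 8.01e-07). With 5xA this held for 75 of 474 (15.8%) and 128 of 1654 (7.74%; odds ratio 2.24, 1.63 to 3.07; exact test, adjusted p = 1.57e-06). With a 2 kb window the odds ratios were 1.59 and 1.3 and passed the threshold in neither list. The rule takes the shortest gene, so a region at the end of a longer overlapping gene can count as far. Of the far regions in more than 1 gene span, 16 of 33 (WT) and 40 of 75 (5xA) lay within 5 kb of another gene's end. The rule thus fixes part of this difference. The exact tests cannot separate that part from the rest, so no conclusion is drawn from their p-values. Small RNA genes were met by 9 far 5xA regions (1.9%) and 9 near ones (0.544%; odds ratio 3.53, 1.24 to 10.1; exact test, adjusted p = 0.0149), and by 4 (2.27%) and 6 (0.904%) WT regions (odds ratio 2.55, 0.523 to 10.9; exact test, adjusted p = 0.252). The 5xA call did not hold with a 2 kb window (odds ratio 1.42). These are the hairpin and small RNA regions described above, and the plot of far and near regions sets the shares side by side.

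Far regions of the 5xA list were less often wide. With 5xA, 205 of 474 far regions (43.2%) were wider than the list's median of 104 bases, against 52.4% of near regions (odds ratio 0.694, 0.561 to 0.856; Fisher's exact test, two-sided, adjusted p = 0.00102), and with a 2 kb window this was no longer called (0.842). With WT, 44.3% of far and 51.7% of near regions were wider than 114 bases (odds ratio 0.745, 0.525 to 1.05; exact test, adjusted p = 0.108). The median width was 109.5 bases for interior and 100.5 for upstream WT regions, and 98 and 90 bases for the 5xA regions. Near regions had medians of 116 and 108 bases. Neighbours were fewer as well, a difference that was not tested. Another region of the list lay within 1 kb of 32.4% of interior, 20.6% of upstream and 51.7% of near WT regions, and of 42.5%, 17.6% and 57.4% of 5xA regions.

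Strand separated some far regions from their gene. The start table gives a strand for 15842 of 20033 protein-coding genes. In genes of known strand 16 of 137 far WT regions (11.7%) lay on the opposite strand and 0 of 557 near ones did. With 5xA it was 34 of 384 (8.85%) and 5 of 1372 (0.364%). The rule measures to the end downstream on the region's strand, so an antisense region counts as near only at the start of its host gene, and one at its host's 3′ end counts as upstream. The rule thus fixes much of this difference, and the shares are given as a description with no test. Among interior regions alone the opposite-strand shares were 9.35% with WT and 7.28% with 5xA.

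Most antisense far regions lay near an end of another gene, so "far from a gene end" does not describe them. Another gene, on their strand or with no strand given, ended within 5 kb for 11 of 16 WT and 23 of 34 5xA regions. Over far regions of any strand it was 16 of 176 and 40 of 474. A gene without a given strand was taken to run with the region, so a short pseudogene span passes either way. TSC2, a repressor of mTOR signalling, held 3 WT and 4 5xA regions, all shared, on the strand and at the end of PKD1, the polycystin gene next to it. CXCR5 held 1 region in each list at the end of BCL9L, GRHPR 1 in each at the end of the zinc-finger gene ZBTB5, and SETD9 1 WT and 2 5xA regions at the end of MIER3. Pseudogene spans lay under some of the antisense far regions, such as OTUD4P1 in PARP11, where the WT region of 84 bases and the 5xA region of 91 bases overlapped. Pseudogene spans were met by 6 of 176 far and 0 of 664 near WT regions, and by 10 of 474 and 6 of 1654 5xA regions (not tested). No other gene was annotated at 5 antisense WT regions, 67 to 69 bases wide, and 9 antisense 5xA regions, 63 to 91 bases wide. The regions in ATF7IP, ATP9A and COL4A1 were found in both lists. H19, a lncRNA that is itself a miRNA hairpin host, gave 2 WT and 3 5xA regions that the rule assigned to the gene MRPL23 around it.

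Far regions fell in 136 genes with WT, 0.948% of the 14342 protein-coding genes longer than 10 kb, and in 328 genes with 5xA (2.29%). Both lists had 104 of these genes, which is 76.5% of the WT genes and 31.7% of the 5xA genes. In them the 5xA list held more far regions in 37 genes, fewer in 2 and as many in 65. Of the 224 genes with a far region in the 5xA list and none in the WT list, 187 held no WT region in the gene at all and 37 held a near one. Far regions were the sole regions of their list in 111 of 136 WT genes (81.6%) and 233 of 328 5xA genes (71.0%), and most genes held 1 far region (113 and 255).

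**Figure D4:**
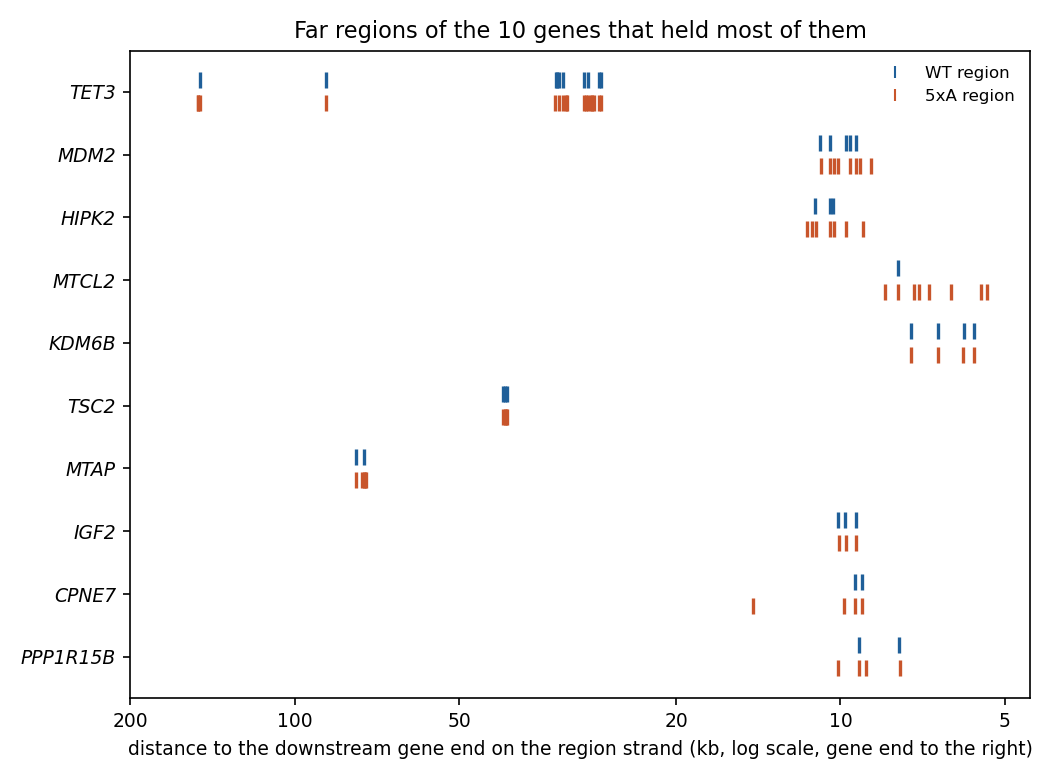
Far regions of the 10 genes with most of them: each tick is a region midpoint, placed by its distance to the downstream gene end on the strand of the region (horizontal axis, kb, log scale, gene end to the right), with WT regions (blue) above 5xA regions (orange). Most regions of a gene form a tight cluster. The 5xA list holds more ticks than the WT list in every gene shown except KDM6B and IGF2, where the lists hold as many.

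Where a gene held many far regions most of them lay in 1 tight cluster, seen in both lists. TET3, whose product oxidises 5-methylcytosine, held 10 WT and 17 5xA far regions and no near one. On the plus strand of chromosome 2, 8 WT and 13 5xA of these lay between positions 74102073 and 74108033, 27.5 to 33.3 kb before the gene end at 74135498. Shared regions made up 9 of the 10 and 9 of the 17. Upstream, TET3 held a region shared by both lists near position 73986461, and a pair of 5xA regions at 73984931 and 73985039 that no WT region met. With TET3 left out, the tests kept their direction and their side of the threshold.

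MDM2, the ubiquitin ligase that limits p53, held 5 WT and 8 5xA regions between 68839704 and 68841942 of chromosome 12, all 8.8 to 10.9 kb before the gene end, and 4 of each list were shared. HIPK2, a kinase that acts on p53 among other proteins, held 3 WT regions and 7 5xA regions at 9.11 to 11.5 kb, and each WT region was shared. The 5xA regions thus reached past the WT regions on both sides there, as the plot of the 10 genes shows. MTCL2, a microtubule-binding protein gene, held 1 WT and 8 5xA regions, 5.39 to 8.29 kb from the end. KDM6B, a histone H3 lysine demethylase, held 4 regions in each list, all shared, from 5.69 to 7.43 kb.

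MTAP, an enzyme of methionine salvage, held 2 WT regions and 5 5xA regions, 74.0 to 77.3 kb from the gene end, and both WT regions were shared. IGF2, a fetal growth factor, held 3 regions in each list, all shared, in the span of the read-through gene INS-IGF2 too. CPNE7, a copine, and PPP1R15B, a subunit of the phosphatase of translation factor eIF2, each held 2 WT regions, both shared, and 4 5xA regions. The gene table gives spans without exons or transcript ends, so these clusters may lie in a long 3′ UTR or near the end of a shorter transcript. This was not tested.

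Shared far regions were seldom the same to the base. Of 120 pairs in which 1 WT and 1 5xA region overlapped each other alone, the 5xA region was wider in 81, the WT region in 35, and 4 had equal widths. The median difference, 5xA minus WT, was 13.5 bases. Both ends agreed within 10 bases in 32 pairs and were identical in 2, the let-7f and miR-1296 regions. Of the 342 far 5xA regions that met no WT region, 130 (38.0%) lay in a gene with a WT region on the same strand, at a median gap of 1340 bases, and 59 of these were within 1 kb of it.

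Genes with far regions in the 5xA list and none in the WT list held few each. CUX1, a homeodomain transcription factor, held the most, 4 regions 26.3 to 34.8 kb from its end. The zinc-finger gene ZNF680, the plasmalogen enzyme gene PEDS1, and the transcription factors ZBTB20 and ZNF652 held 3 each. ZBTB20 also held 3 WT and 8 5xA near regions. MKNK2, a kinase of the cap-binding protein eIF4E, held 2 upstream 5xA regions beside 9 WT near regions, and HAS3, a hyaluronan synthase, held 2 interior ones beside 7. TP53I13 held 2, both on the opposite strand at the end of GIT1.

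The 32 genes with a far region in the WT list alone held 1 each. Those with most covered bases were ZFHX3 (183 bases, 276 kb from its end), BCL9L, KLF16, CAB39, CLVS1, PCNX3, UBE2J2 and ERI1 (106 bases). They include transcription factors (ZFHX3, KLF16), a Wnt coactivator (BCL9L) and a 3′ exoribonuclease (ERI1). The CAB39 region lay antisense at the pseudogene BANF1P3. ZFHX3, BCL9L and KLF16 held near regions in the 5xA list, 5, 3 and 3 of them.

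**Figure D5:**
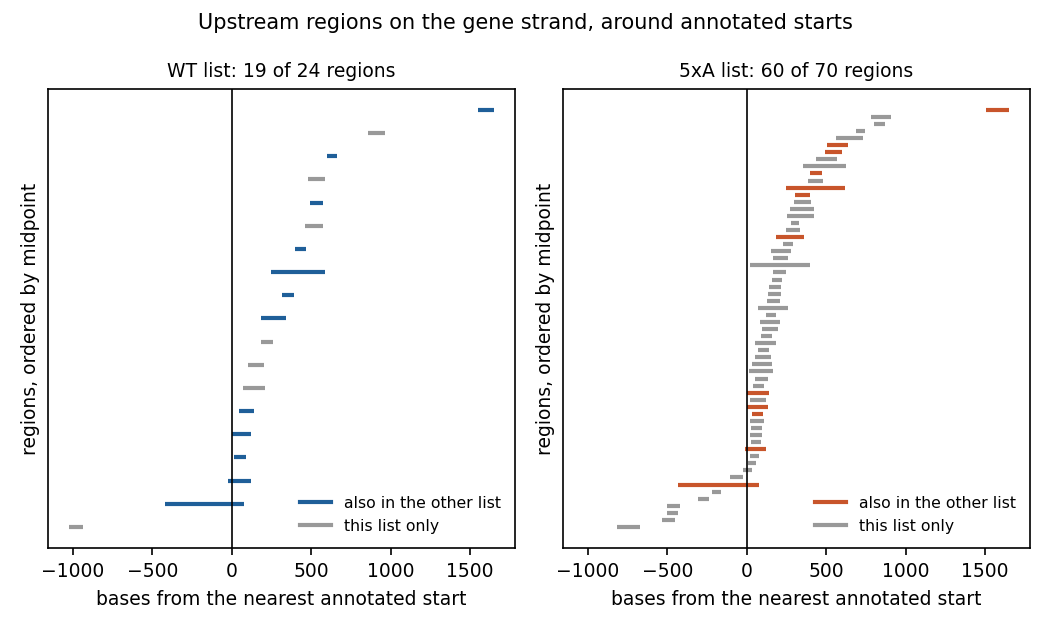
Upstream regions on the gene strand drawn as bars from their first to their last base relative to the nearest annotated start (horizontal axis, bases), ordered by midpoint, for the WT list (left) and the 5xA list (right). Coloured bars overlap a region of the other list, grey bars do not, and regions whose midpoint is more than 2000 bases from a start are left out, which leaves 19 of 24 and 60 of 70.

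Upstream regions on the gene strand gathered just after annotated starts. Of 24 such WT regions 16 (66.7%) had their midpoint in the first 1000 bases after a start, and of 70 5xA regions 51 (72.9%) did. The first 200 bases held 6 of the 24 and 28 of the 70. The median midpoint was 308 bases after the start with WT and 172 with 5xA, as the plot around annotated starts shows. For comparison, the first 1000 bases after any annotated start of the gene held 4 of 97 interior WT and 6 of 280 interior 5xA regions. Closeness to the upstream gene end is what defines the class, so the gathering itself is a description.

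An upstream region was found in both lists in 17 genes. EIF4EBP2, which encodes a repressor of cap-dependent translation, held 2 in each list, and the first began 48 bases after the start with WT and 3 after it with 5xA. In B4GALT5, a galactosyltransferase gene, the regions ran from 0 to 120 bases (WT) and from 3 to 133 bases (5xA). In HIC2, a transcriptional repressor, they ran from 15 to 91 and from 33 to 102. BRI3 held 1 WT and 3 5xA upstream regions, and the shared one began 21 bases before the start with WT and 8 before it with 5xA. PGK1, a glycolytic kinase, was different, with regions of 498 and 507 bases that lay mostly before the start and ended 75 and 77 bases after it. The widest far region of both lists was that of HMGA2, a chromatin protein and let-7 target, with 997 bases (WT) and 1043 bases (5xA) at its start, where the RPSAP52 pseudogene span overlaps. The others with most covered bases were TSC2, TET3, ANKRD33B, MIDN, TP53INP1 and CXCR5, with TSC2 and CXCR5 on the opposite strand.

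In the miRNA silencing machinery 7 of 41 genes longer than 10 kb held a far 5xA region (17.1%, beside 2.29% of all such genes), and 3 of them a far WT region (7.32%, beside 0.948%). These lists were chosen with results of the data known, and their counts are descriptions. DICER1, which cuts miRNA hairpins, held 2 WT regions, both shared, and 3 5xA regions, with the shared ones 17.5 to 17.8 kb from the gene end. TNRC6A and TNRC6B held 1 WT and 3 5xA regions each, and their WT regions were shared. TNRC6C, the deadenylase-complex subunit CNOT4, the poly(A)-binding protein gene PABPC1 and AGO2 itself held 1 far 5xA region each and no far WT one. Near its end AGO2 held 3 WT and 2 5xA regions, and TNRC6C held 3 and 5. Of 11 genes of the AGO2 phosphorylation cycle 1 held far regions, ANKRD52, a subunit of the phosphatase that acts on AGO2, with 1 shared region in each list at 5.18 kb (WT) and 5.17 kb (5xA).

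The counts of the further gene lists stand beside shares of 2.29% (5xA) and 0.948% (WT) over all protein-coding genes longer than 10 kb. Known let-7 targets with far regions were 5 of 28 with 5xA (17.9%) and 4 with WT (14.3%). HMGA2, HIC2, DICER1 and the nuclear receptor NR6A1 were in both lists, and the cell-cycle kinase CDK6 with 5xA. Of 36 hosts of intronic miRNAs, 5 held a far 5xA region (HUWE1, RNF130, PANK3, CLCN5, GPC1) and the first 3 a WT one. The regions of PANK3, CLCN5 and GPC1 lay outside the hairpins. The list of hosts leaves out JMJD1C, LMNB2, WDR82 and JAG2, whose hairpin regions are described above. No far region fell in 13 snoRNA hosts. Chromatin regulators counted 9 of 48 with 5xA (18.8%) and 4 with WT (8.33%), among them KDM6B, the methyltransferase KMT2B, TET3 and TET1 in both lists. The TET1 regions lay 121 kb from the gene end. In the p53 pathway it was 3 of 21 with 5xA and 2 with WT (MDM2 and TP53INP1, and TIGAR with 5xA alone). In the Wnt pathway it was 1 of 24 in each list (4.17%), GSK3B with 5xA and BCL9L with WT. Among 41 splicing and mRNA-binding proteins it was 3 with 5xA (CELF1, QKI, SON) and 0 with WT. Counts of 1 or 0 give no ground to set a gene list apart from all long genes. The lists hold no expression level, and whether a list's share follows the expression of its genes was not tested.

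Markers of cell types were too few among long genes to check the line. Of 4 colorectal epithelial markers longer than 10 kb, VIL1, an actin-binding protein of microvilli, held 1 upstream 5xA region, which lay at the end of USP37. Of 7 fibroblast markers COL1A1, a collagen chain, held 1 WT and 3 5xA regions, 1 pair of them shared, at 5.58 to 7.57 kb from its end. Of 3 blood markers none held a far region in either list.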

How the data were processed

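The deposited data are 2 region lists, WT and 5xA, each made by the authors for both IP samples of a genotype. Reads were handled with cutadapt 1.9.1 and TopHat2 on hg38, per the submitters' processing notes. The other columns deposited are coordinates and strand, and the deposited score is 0 in every row, so no score was used. Nothing in the labels says that the IP replicates came from separate cultures. The 8 input and knockout samples were not analysed here, and depth per sample is unknown.

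Regions were placed in gene spans of the RefSeq table of GRCh38.p14, which gives no strand. Strands and starts came from the RefSeq promoter table, and genes it does not list have no strand here. A region counted as shared if 1 base or more of it, on its strand, lay in a region of the other list. Counts, Clopper-Pearson intervals and two-sided Fisher's exact tests with Benjamini-Hochberg adjustment over 12 tests (threshold 0.05) were computed in Python 3.11 with scipy 1.17.1, pandas 2.3.3 and numpy 2.4.6, and plots with matplotlib 3.10.9. On simulated lists 600 of 600 planted regions received the right gene and class. Alternatives changed the window, the gene choice, the gene length, strand, overlap and width rules. The settings with interior regions alone and without TET3 were added after seeing the data.

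The members and lists were chosen with earlier results of these data known. Named were up to 10 genes with most far regions, up to 8 each with far regions in 1 list, all small RNA members, up to 10 genes with upstream regions in both lists, up to 4 bound genes per gene list (the text names the further bound genes of a list too, beyond that rule), the 5 widest regions and the 3 regions on each side of the threshold. Ties were settled by the number of covered bases. Other genes, among them MRPL23, SETD9, GRHPR, PARP11, ATF7IP, ATP9A, COL4A1, GPHN, RPS6KC1, B4GALT5 and HIC2, were picked with their values in view. Among the 12 tests are 2 of opposite-strand shares, which are not used because the rule itself takes the strand of the region.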

Additional observations from a re-analysis of the deposited data

How the results depend on the processing

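Over the region numbers and tests other than those of strand, 93 values under an alternative kept their direction and side of the threshold (or stayed within 1.5 times for a number), 12 fell short of the threshold, 1 passed it anew, 1 reversed and 5 numbers moved. A 2 kb window gave 340 interior WT and 895 interior 5xA regions, and odds ratios of 1.3 for the WT interior share, 1.59 (WT) and 1.3 (5xA) for more than 1 gene, 1.42 for small RNA genes and 0.842 for wide regions with 5xA. A 10 kb window gave 88 and 218 interior regions. The WT interior odds ratio was 1.53 with the longest span, 1.66 without regions in more than 1 gene, 1.54 without regions near another gene's end, 1.26 on the gene strand and, reversed, 0.931 under a reciprocal overlap of 50%, which gave 2.07 for the WT upstream share. Genes longer than 20 kb held 64 upstream 5xA regions and gave upstream odds ratios of 2.58 (WT) and 1.26 (5xA). With 250 bases as the width limit, far WT regions were wide less often (odds ratio 0.447; exact test, adjusted p = 0.0401). The cause of these changes was not tested. No paired analysis was possible because each list pools both replicates of its genotype, and for the same reason no replicate could be left out. Without read counts, the depth that limits which regions were found is unknown.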
